A study of Mus musculus with 12 samples.

Results

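The machinery of endoplasmic reticulum (ER)-associated degradation was followed in mouse colon through 10 genes chosen by name: Edem1, Edem2, Erlec1, Os9, Syvn1, Sel1l, Herpud1, Derl1, Derl2 and Derl3. A probe belonged to one of them when its transcript accession mapped to that gene in RefSeq, which gave 20 probes, all of them kept, among 30428 kept probes that stand for 23352 genes or transcripts. The brightest probe of a gene, by its mean level on the 12 arrays, represents it. Colonic RNA from male mice on the C57BL/6J background was hybridised to 12 single-colour Agilent arrays, 2 for each of 6 groups. The ATF6aKO groups lack Atf6, which encodes ATF6a, and the ATF6bKO groups lack Atf6b; each knockout was either untreated (UT) or drank water with 3% dextran sulfate sodium (DSS), which damages the lining of the colon and causes colitis, over 3 days. The third genotype was wild type (WT), for which the titles of 2 samples say DSS and those of 2 say UT, while the descriptions and treatment fields of the same samples say the opposite. These groups are called WT titled DSS and WT titled UT, and no sign of their difference was read as an effect of DSS. The sources used here give neither the ages of the mice nor the design of the knockout alleles nor any pooling of animals. Nothing in the labels says whether a group's 2 samples are separate mice; the p-values therefore reflect the spread of these samples alone, and that spread may be technical.

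Proteins that fail to fold in the ER are recognised there, passed back through the membrane, tagged with ubiquitin and degraded by the proteasome. Edem1 and Edem2 trim mannose from the glycans of such proteins, and the lectins Os9 and Erlec1 read the trimmed glycan. Syvn1 is the ubiquitin ligase of the membrane complex, Sel1l holds the lectins to it, Herpud1 is a small organiser of the complex, and the derlins Derl1, Derl2 and Derl3 form part of the way out. ATF6a is a membrane protein of the ER that releases a transcription factor fragment when unfolded proteins accumulate, and genes of this machinery are among its known targets, shared in part with XBP1. The colon is rich in secretory cells, goblet cells in the epithelium and plasma cells beneath it.

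ATF6 fragments act with the factor NF-Y at the ER stress response element (ERSE) and at its variant ERSE-II, so the RefSeq promoters (assembly GRCm38.p6) were searched, on both strands from 250 bases before to 50 after the start, in the 8 genes for which the table used here holds one (9 promoters, since Derl2 has 2 starts). ERSE was searched as CCAAT and CCACG with 9 bases of any kind between them, ERSE-II as ATTGG and CCACG with 1 base between them, and the unfolded protein response element as TGACGTGG. ERSE was found in 0.119% of the 32851 promoters in the table and, among the 10 genes, in Syvn1 and Derl3. ERSE-II was found in 0.0365% of all promoters and, among the 10 genes, in Herpud1. The unfolded protein response element was in 0.676% of all promoters and in no promoter of these genes. The 200 bases before the start of those 3 genes are shown because they hold the exact matches, in capitals, which for Derl3 reads ERSE from the opposite strand. These are chr19:6046376-6046575 for Syvn1, chr10:75893198-75893397 for Derl3 and chr8:94386229-94386428 for Herpud1, all on the plus strand.
Syvn1: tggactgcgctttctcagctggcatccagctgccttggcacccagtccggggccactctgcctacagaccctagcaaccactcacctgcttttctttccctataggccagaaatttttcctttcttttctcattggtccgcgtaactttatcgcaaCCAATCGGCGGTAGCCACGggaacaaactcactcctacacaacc
Derl3: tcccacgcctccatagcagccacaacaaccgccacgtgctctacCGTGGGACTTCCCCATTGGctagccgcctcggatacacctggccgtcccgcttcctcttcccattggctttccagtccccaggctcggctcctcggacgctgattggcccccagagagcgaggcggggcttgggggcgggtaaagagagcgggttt
Herpud1: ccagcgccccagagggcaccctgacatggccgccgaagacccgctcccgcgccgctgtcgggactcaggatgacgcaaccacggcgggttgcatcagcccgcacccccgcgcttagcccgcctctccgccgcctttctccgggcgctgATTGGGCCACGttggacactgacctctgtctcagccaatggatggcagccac
The match began 44 bases before the start in Syvn1, 156 before it in Derl3 and 52 before it in Herpud1. The shorter string CCACG, which is part of ERSE and ERSE-II, was in 32.8% of all promoters and in promoters of all 8 genes, and is too common to set them apart. A match is a description of letters; binding was not measured.

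All levels below are log2 of the scanner's processed signal minus log2 of the array's 75th percentile, so that a difference of 1 is 2-fold. Levels of different genes come from different probes and were not compared. The targeted genes were lowest in the samples labelled as their knockouts; the sources used here do not say whether their probes lie in the deleted parts. Atf6 lay between -3.23 and -3.04 on the 4 ATF6aKO arrays and between 0.60 and 1.22 on the other 8. Atf6b lay between -7.64 and -4.14 on the 4 ATF6bKO arrays, where it was well above background on 1 of 4, and between -1.10 and 0.16 on the others. Each of the 3 slides, scanned separately, held 1 genotype, so slide and genotype cannot be told apart. The 2 WT titled UT arrays stood apart from the rest: the median distance of a gene from its median over arrays was 0.73 and 0.50 there, against 0.20 to 0.30 on the other 10 arrays. Comparisons of the knockouts with WT are therefore also given against the WT titled DSS arrays alone, while the difference within WT and the tests built on it have no value without them. In whole tissue, fewer cells of a type and less RNA per cell cannot be told apart.

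On 10 of the 12 arrays, those other than WT titled UT, most of these transcripts varied little. Over those 10 arrays the highest and the lowest level of Edem1 were 0.48 apart, of Os9 0.58, of Sel1l 0.58, of Erlec1 0.67, of Derl2 0.72, of Herpud1 0.81, of Syvn1 0.88 and of Derl1 0.89. Edem2 spanned 1.06 and Derl3 2.76. With the WT titled UT arrays the span of Edem1 grew to 1.72, of Sel1l to 1.69, of Syvn1 to 1.92 and of Herpud1 to 1.63. The spans show where the contrasts lie: Derl3 varied among arrays of every genotype, Edem2 separated the knockouts, and Edem1, Sel1l, Syvn1 and Herpud1 reached their lowest levels on those 2 arrays. Erlec1 and Derl2 also widened with them, to 1.40 and 1.20, while the spans of Os9 and Derl1 were the same with and without them.

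**Figure D1:**
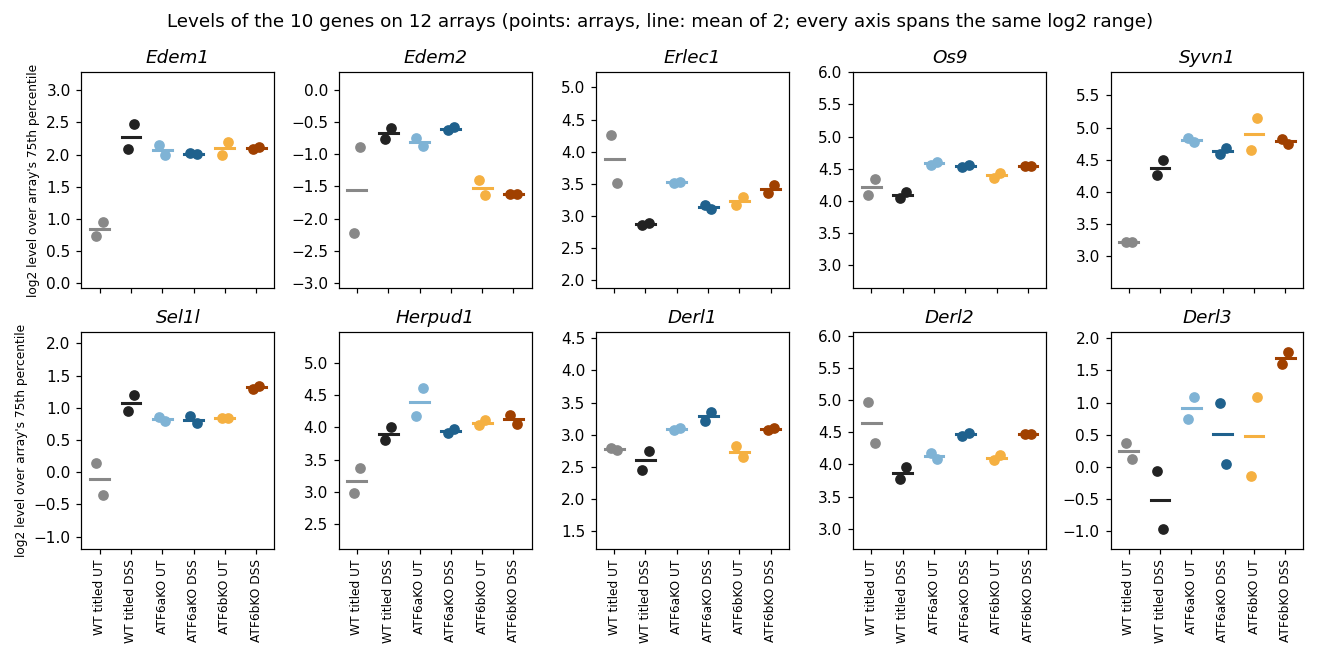
Levels of the 10 genes (log2 over the array's 75th percentile) on each array by group; points are arrays, lines are the means of 2 arrays, and each vertical axis spans the same number of log2 units. Edem1, Syvn1, Sel1l and Herpud1 were lowest on the 2 WT titled UT arrays, Edem2 was lower in ATF6bKO than in ATF6aKO, and Derl3 was highest on the ATF6bKO DSS arrays.

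Whether loss of either ATF6 protein altered the machinery was asked by comparing 4 knockout arrays with 4 WT arrays, treatment being a term in the fit. By the probe that represents it, no gene of the 10 passed as lower in either knockout. In ATF6aKO, 3 of 10 passed as higher (Syvn1, Derl1 and Derl3), while of all genes 35.2% passed, 14.6% as higher and 20.6% as lower. In ATF6bKO, 1 of 10 passed as higher (Syvn1), while of all genes 29.2% passed, 13.7% as higher and 15.5% as lower. The 4 knockout and 4 WT arrays did not overlap for 3 of 10 genes in ATF6aKO (Derl1, Os9 and Syvn1) and 3 of 10 in ATF6bKO (Herpud1, Os9 and Syvn1), beside 31.2% and 28.1% of all genes. The median difference of the 10 was 0.45 in ATF6aKO, where the median of all genes was -0.08, and 0.43 in ATF6bKO, where it was -0.02. All tests are limma with Benjamini-Hochberg adjustment over all genes tested and a threshold of 0.05.

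Syvn1, the ligase, stood at 4.84 and 4.77 on the untreated and 4.59 and 4.68 on the DSS arrays of ATF6aKO. It stood at 4.65, 5.15, 4.82 and 4.75 in ATF6bKO, at 4.26 and 4.49 on the WT titled DSS arrays and at 3.22 and 3.23 on the WT titled UT arrays. Every knockout array lay above every WT array. Syvn1 was higher than in WT by 0.92 in ATF6aKO (SE 0.27, 1.89-fold, adjusted p = 0.0312) and by 1.04 in ATF6bKO (SE 0.28, 2.05-fold, adjusted p = 0.0307). Against 1 WT pair alone no treatment term is possible, and the mean of the untreated and DSS knockout groups was set against that pair. Against the WT titled DSS arrays the differences of Syvn1 were then 0.34 (adjusted p = 0.074) and 0.46 (adjusted p = 0.117), and against the WT titled UT arrays 1.49 and 1.61. The call in ATF6aKO was also lost without either WT titled UT array or either ATF6aKO UT array (adjusted p 0.0681 to 0.095), and that in ATF6bKO without either WT titled UT array, either ATF6bKO UT array or WT titled DSS replicate 1 (0.0531 to 0.0808). The other probe of Syvn1, which lay between -5.24 and -4.69 and was well above background on 11 of the 12 arrays, differed by -0.04 and -0.01.

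Among the derlins, Derl1 stood at 3.08, 3.11, 3.22 and 3.36 in ATF6aKO, at 2.82, 2.65, 3.08 and 3.11 in ATF6bKO, and between 2.46 and 2.80 in WT. Its lowest ATF6aKO array lay above its highest WT array, while ATF6bKO and WT overlapped. The difference from WT was 0.50 in ATF6aKO (SE 0.17, adjusted p = 0.0456) and 0.22 in ATF6bKO (95% interval -0.19 to 0.64, adjusted p = 0.371). The former call was lost without any 1 of 7 of the 8 arrays (adjusted p 0.0559 to 0.13), the exception being WT titled UT replicate 1; it held against the WT titled DSS arrays alone (0.59, adjusted p = 0.0217). Derl3, the derlin that is most abundant in professional secretory cells, stood at 0.75, 1.09, 0.99 and 0.04 in ATF6aKO, at -0.14, 1.09, 1.60 and 1.79 in ATF6bKO, and at -0.06 and -0.97 (titled DSS) and 0.38 and 0.12 (titled UT) in WT. Knockout and WT arrays overlapped. Its difference was 0.85 in ATF6aKO (SE 0.28, adjusted p = 0.0468) and 1.22 in ATF6bKO (95% interval 0.12 to 2.31, adjusted p = 0.0874). The call in ATF6aKO was lost without 6 of the 8 arrays in turn, the exceptions being ATF6aKO DSS replicate 2 and WT titled DSS replicate 1, and one in ATF6bKO appeared without ATF6bKO UT replicate 1 (1.66, adjusted p = 0.025). Derl2 differed from WT by 0.04 (95% interval -0.56 to 0.65) and 0.03 (-0.61 to 0.68). Other probes of these genes did not always follow: when all probes were tested, 1 Derl1 probe (-0.54, adjusted p = 0.0337) and the other Derl2 probe (-0.58, adjusted p = 0.0447) passed as lower in ATF6bKO than in WT. Markers of several cell types moved beside these differences, and their part in them was not tested. Of the plasma cell markers 3 of 8 were higher in ATF6aKO than in WT and 0 of 8 in ATF6bKO, and against the WT titled DSS arrays alone 5 and 2. Of the markers of absorptive colonocytes 2 of 8 were lower and 1 higher (Car4) in ATF6aKO and 5 of 8 lower in ATF6bKO, and against the WT titled DSS arrays alone 3 and 2 were lower. Neutrophil markers were higher in 3 of 6 cases in both knockouts (2 and 2 against those arrays alone). Fibroblast markers were higher in 2 of 8 cases and lower in 1 in ATF6aKO, and higher in 3 of 8 in ATF6bKO (4 higher and 1 lower, and 5 higher, against those arrays alone).

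For the remaining genes no call was made in either knockout. The intervals show what size could have been missed in a fit that counts unequal treatment differences as spread. Herpud1 stood between 3.91 and 4.61 on the 8 knockout arrays, at 3.80 and 4.0 on the WT titled DSS arrays and at 2.98 and 3.37 on the WT titled UT arrays. Its difference was 0.63 in ATF6aKO (95% interval 0.01 to 1.24, adjusted p = 0.0997) and 0.56 in ATF6bKO (0.09 to 1.02, adjusted p = 0.0699). These intervals are not adjusted for the number of genes tested. By single groups, with no test, the knockout means of Herpud1 lay 0.04 to 0.49 above the WT titled DSS arrays. They lay 0.76 to 1.22 above the WT titled UT arrays. Sel1l differed by 0.34 (-0.28 to 0.95) and 0.59 (0.10 to 1.09, adjusted p = 0.0707). Edem1 differed by 0.48 (-0.21 to 1.17) and 0.53 (-0.17 to 1.23), and Edem2 by 0.41 (-0.26 to 1.09) and -0.45 (-1.22 to 0.31). The other Edem1 probes differed by 0.36 and -0.09 in ATF6aKO and by -0.22 and 0.20 in ATF6bKO. The lectin Os9 differed by 0.41 (0.07 to 0.76, adjusted p = 0.0617) and 0.32 (-0.04 to 0.68). By that probe its lowest knockout array stood at 4.36 and its highest WT array at 4.34. The other Os9 probe differed by 0.34 (-0.22 to 0.90) in ATF6aKO and by -0.02 (-0.68 to 0.65) in ATF6bKO, and its knockout and WT arrays overlapped. Erlec1 differed by -0.05 in both knockouts (-0.55 to 0.46 and -0.72 to 0.62). Its other probe differed by 0.34 (-0.17 to 0.84) in ATF6aKO and by 0.73 (0.15 to 1.31, adjusted p = 0.0608 over all probes) in ATF6bKO.

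Which WT arrays were used decided much of the comparison. In these fits the knockout side holds both treatments and the WT side 1, so a gene's difference between treatments enters them. Against the WT titled DSS arrays alone, Erlec1, Os9, Derl1 and Derl2 passed as higher in ATF6aKO (by 0.46, 0.48, 0.59 and 0.43), beside 15.7% of all genes higher and 21.3% lower, and Edem1 and Sel1l differed by -0.23 and -0.25 without passing. In ATF6bKO Erlec1, Os9 and Derl2 then passed as higher (by 0.45, 0.39 and 0.43) and Edem2 as lower (by -0.89, adjusted p = 0.0136), beside 12.9% of all genes higher and 14.5% lower. By single groups, with no test, the mean of Erlec1 was above that of the WT titled DSS arrays by 0.27 in ATF6aKO DSS and 0.65 in ATF6aKO UT, and that of Derl2 by 0.60 and 0.26, so the size depends on which knockout group is taken as the match. Against the WT titled UT arrays alone, Edem1, Syvn1, Sel1l and Herpud1 passed as higher in both knockouts, by 0.92 to 1.61. Of all genes 21.6% were then higher and 28.2% lower in ATF6aKO, and 20.6% and 22.7% in ATF6bKO. Other probes of Edem1 and Syvn1 did not follow throughout. By group means, with no test, 1 of the other Edem1 probes stood at 1.75 on the WT titled UT arrays. It stood at 1.28 (UT) and 1.60 (DSS) in ATF6bKO and at 2.016 and 2.025 in ATF6aKO. The other Syvn1 probe stood at -4.87 on those WT arrays and between -5.16 and -4.82 in the knockout groups. The other Sel1l probe was higher in every knockout group than on those WT arrays. The genes called thus changed with the WT pair. By the probes that represent them, Syvn1, Herpud1, Os9, Derl1 and Derl3 had a positive difference against each WT pair in both knockouts. The smallest was 0.13 (Derl1 in ATF6bKO). These differences share arrays, and the share of all genes with such signs was not computed. By single groups, Derl1 in ATF6bKO UT differed from the WT titled UT arrays by -0.05. Both subsets of WT arrays were chosen after the data had been seen. In a fit of all 12 arrays, which draws its spread from 6 groups, 5 genes passed in ATF6aKO (Edem1, Os9, Syvn1, Herpud1 and Derl1) and 6 in ATF6bKO (Edem1, Os9, Syvn1, Sel1l, Herpud1 and Derl3), all as higher; of all genes 21.5% then passed as higher and 28.9% as lower in ATF6aKO, and 24.5% and 26.1% in ATF6bKO. The authors' value table shifts the median of all genes by 0.56 in ATF6aKO minus WT and by 0.60 in ATF6bKO minus WT, and normexp background correction by 0.12 and 0.34; calls on the value table (10 and 7 genes, all higher) are to be read against that shift. The share of called genes that were higher moved from 41.4% to 61.6% (normexp) and 87.7% (value table) in ATF6aKO, and from 46.8% to 77.0% and 91.0% in ATF6bKO.

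**Figure D2:**
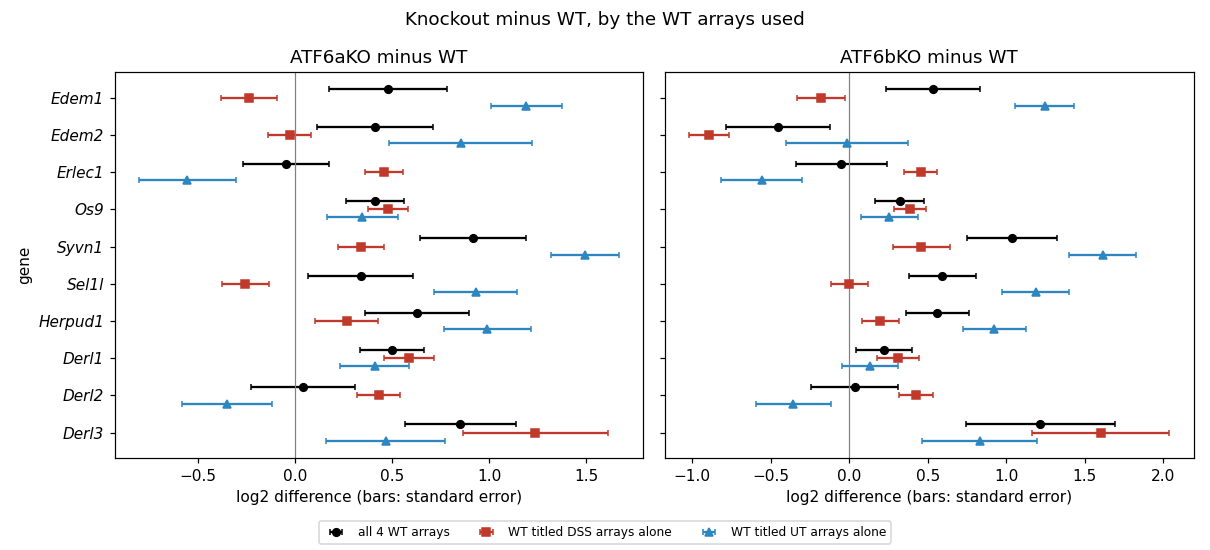
Log2 difference of each gene, ATF6aKO minus WT (left) and ATF6bKO minus WT (right), with bars of 1 standard error, computed with all 4 WT arrays (circles), with the WT titled DSS arrays alone (squares) and with the WT titled UT arrays alone (triangles), the last 2 without a treatment term. Edem1, Syvn1, Sel1l and Herpud1 lie farthest to the right against the WT titled UT arrays, where Syvn1 reached 1.49 and 1.61; Os9 and Derl3 lie to the right of 0 throughout.

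How the genes differed with DSS was first asked within the knockouts, with no WT array in the contrast, although the fit for each knockout drew its spread from all 12 arrays. Whether a response depends on an ATF6 protein needs the WT response as well. DSS was accompanied there by inflammation markers: 6 of 6 measured neutrophil markers and 6 of 7 monocyte and macrophage markers rose over both knockouts. Of the 10 degradation genes, 0 passed in ATF6aKO, where limma called 6.39% of all genes (2.9% higher and 3.48% lower), and 0 passed in ATF6bKO, where it called 12.9% (5.7% higher and 7.21% lower); at an unadjusted p under 0.05 the counts were 0 and 2. Over both knockouts, 4 DSS against 4 untreated arrays, 1 of 10 passed (Derl2), beside 29.1% of all genes. The median difference of the 10 was 0.05, and that of all genes -0.01. Nor did the arrays separate more often than usual: the 2 DSS and 2 untreated arrays did not overlap for 7 of 10 genes in ATF6aKO and 6 of 10 in ATF6bKO, beside 67.2% and 63.5% of all genes, and over both knockouts for 1 of 10, beside 26.2%.

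Derl2 stood at 4.17 and 4.09 on the untreated and 4.44 and 4.49 on the DSS arrays of ATF6aKO, and at 4.07 and 4.14 against 4.48 and 4.48 in ATF6bKO. All 4 DSS arrays lay above all 4 untreated arrays. It rose by 0.36 (SE 0.08, 1.28-fold, adjusted p = 0.0144), and by 0.34 to 0.38 without any 1 array, each time past the threshold. The other Derl2 probe stood at 0.35 and 0.30 against 0.08 and 0.10 in ATF6aKO and at -0.09 and 0.20 against -0.09 and -0.16 in ATF6bKO, a difference of -0.21 (adjusted p = 0.137 over all probes). With the mean of both probes the difference was 0.07 (adjusted p = 0.521). The 2 probes of Derl2 thus gave opposite signs. Derl1, whose probe stood at 2.82 and 2.65 untreated against 3.08 and 3.11 with DSS in ATF6bKO, differed by 0.28 over both knockouts (SE 0.09, adjusted p = 0.054) and passed with quantile normalization, with the strict filter and on the value table (adjusted p 0.0345 to 0.0463).

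Of the 10 genes, Derl3 had the DSS difference that varied most between the knockouts. Its levels were -0.14 and 1.09 untreated against 1.60 and 1.79 with DSS in ATF6bKO, and 0.75 and 1.09 against 0.99 and 0.04 in ATF6aKO. In ATF6bKO both DSS arrays lay above both untreated arrays, which were 1.23 apart; in ATF6aKO the groups overlapped. The difference was 1.22 in ATF6bKO (95% interval 0.16 to 2.28, adjusted p = 0.123) and -0.40 in ATF6aKO (-1.46 to 0.65, adjusted p = 0.645). The difference between these differences was -1.62 (SE 0.66, 95% interval -3.12 to -0.13, adjusted p = 0.585), the only one of the 10 with an unadjusted p under 0.05. Plasma cell markers moved beside it. Of 8 measured, 4 rose with DSS in ATF6bKO (Mzb1, Prdm1, Irf4 and Pou2af1) and 0 in ATF6aKO. Their summed level, led by Jchain, was 5.75 to 6.75 untreated and 7.42 to 7.57 with DSS in ATF6bKO, and 7.29 to 7.49 and 7.05 to 7.71 in ATF6aKO. Jchain and Mzb1 were well above background on all 12 arrays, and the part of these cells in the Derl3 values was not tested. Across the 12 arrays Derl3 followed that sum with Pearson r = 0.67, and with r = 0.80 over the 10 arrays without WT titled UT; the points share arrays and scaling, and the arrays fall into 6 groups. Derl3 was not alone in this: over 12 arrays r was 0.74 for Derl2 and 0.68 for Erlec1, and over 10 arrays 0.71 for Os9, 0.66 for Derl1, 0.66 for Derl2 and 0.62 for Erlec1.

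**Figure D3:**
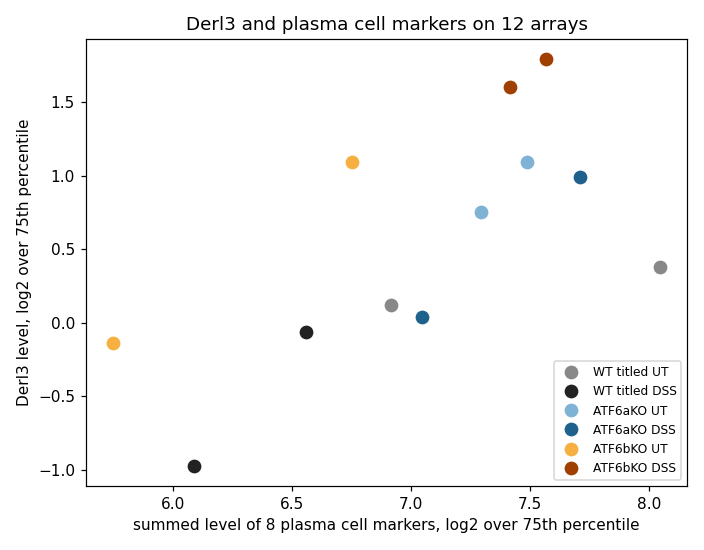
Derl3 level against the summed level of the 8 plasma cell markers, both in log2 over the array's 75th percentile, one point per array coloured by group. The 2 ATF6bKO DSS arrays are highest in Derl3 at 1.60 and 1.79, and the WT titled DSS arrays, at -0.06 and -0.97, are low on both axes.

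Sel1l stood at 0.84 and 0.84 untreated against 1.29 and 1.34 with DSS in ATF6bKO, and at 0.86 and 0.80 against 0.87 and 0.76 in ATF6aKO. The ATF6bKO groups were separate by 0.45 or more, and the ATF6aKO groups overlapped. The difference in ATF6bKO was 0.47 (SE 0.19, 95% interval 0.03 to 0.91, adjusted p = 0.15). It passed without the WT arrays in the fit (adjusted p = 0.0325) and without either WT titled UT array (adjusted p = 0.0345, SE 0.12). The other Sel1l probe differed by 0.48 in ATF6bKO and, over both knockouts, by 0.38 (adjusted p = 0.0429 over all probes), against 0.23 (adjusted p = 0.192) for the probe that represents the gene. Sel1l differed by -0.02 in ATF6aKO (-0.45 to 0.42), and the difference between the knockouts, -0.49, did not pass (-1.11 to 0.13, adjusted p = 0.726).

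Herpud1, a sensitive target of the unfolded protein response, stood at 4.17 and 4.61 untreated against 3.91 and 3.97 with DSS in ATF6aKO, and at 4.03 and 4.11 against 4.19 and 4.06 in ATF6bKO. Its difference was -0.45 in ATF6aKO (95% interval -0.92 to 0.01, adjusted p = 0.216) and 0.05 in ATF6bKO (-0.41 to 0.51). Syvn1 differed by -0.17 (-0.60 to 0.27) and -0.12 (-0.55 to 0.32), Edem1 by -0.06 (-0.47 to 0.35) and 0.01 (-0.40 to 0.42), and Os9 by -0.04 (-0.38 to 0.30) and 0.14 (-0.20 to 0.49). For these 3 genes the intervals leave out a 2-fold change in either direction. Erlec1 differed by -0.38 (-0.90 to 0.13) and 0.18 (-0.33 to 0.70), and Edem2 by 0.20 (-0.60 to 1.01) and -0.09 (-0.89 to 0.72). The test of the difference between the DSS responses of the knockouts called 0 of 23316 genes with limma, and 0 of the 10. At an unadjusted p under 0.05 there were 1865 genes, and with quantile normalization 5 were called. For the 10 genes the 95% intervals of that test reached a median of 0.64 to either side. The 0 calls therefore do not show that the responses were alike.

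**Figure D4:**
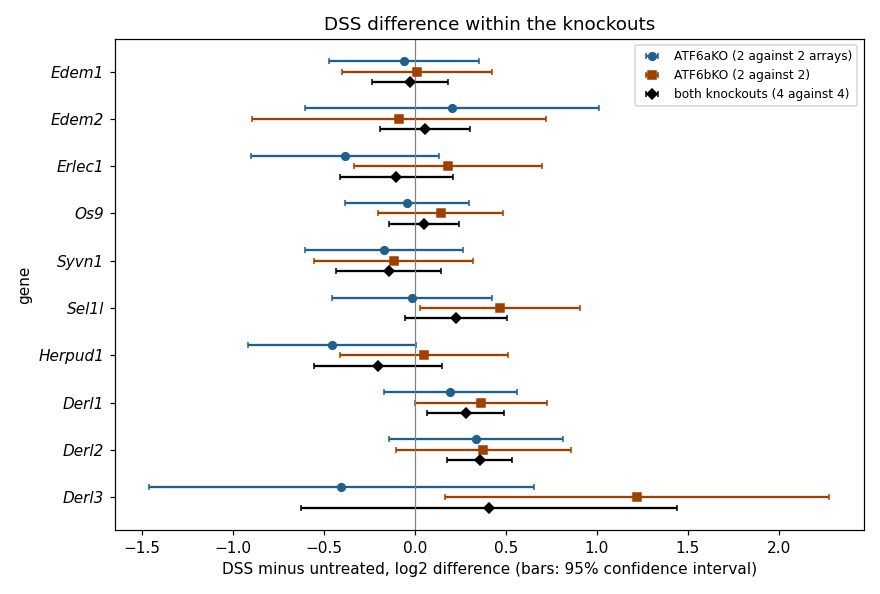
DSS minus untreated log2 difference of each gene in ATF6aKO (circles), in ATF6bKO (squares) and over both knockouts (diamonds), with 95% confidence intervals from limma. The interval of Derl2 over both knockouts lies above 0, that of Derl3 in ATF6bKO runs from 0.16 to 2.28, and most others include 0.

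The knockouts were also compared with each other, over both treatments and without any WT array. Edem2 alone passed, beside 9.19% of all genes. It stood at -0.74, -0.87, -0.62 and -0.58 on the ATF6aKO arrays and at -1.40, -1.64, -1.61 and -1.61 on the ATF6bKO arrays. The groups did not overlap, as for 13.8% of all genes. Edem2 was higher in ATF6aKO by 0.87 (SE 0.10, 1.82-fold, 95% interval 0.62 to 1.11, adjusted p = 0.0148). Without ATF6aKO DSS replicate 1 the adjusted p was 0.0526, and in the fit of all 12 arrays 0.0802. WT did not settle which knockout departed, since Edem2 stood at -0.76 and -0.59 on the WT titled DSS arrays, near ATF6aKO, and at -2.22 and -0.88 on the WT titled UT arrays. Edem2 has 1 probe on the array.

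Derl1 differed between the knockouts by 0.28 with the probe that represents it (SE 0.09, adjusted p = 0.0903). It has 4 probes, and 2 of the others passed as higher in ATF6aKO when all probes were tested, by 0.42 (adjusted p = 0.0305) and 0.89 (adjusted p = 0.0113). The remaining one differed by 0.16 (adjusted p = 0.328), so all 4 had the same sign, and with their mean Derl1 passed (0.44, adjusted p = 0.0323). An Edem1 probe that does not represent the gene also passed (0.58, adjusted p = 0.0487), while the other Edem1 probes differed by -0.05 and -0.29. With normexp Edem2 (0.59), Derl1 (0.35) and Sel1l (-0.25) passed; normexp shifted the median of all genes by -0.22, against -0.07 as reported, and moved the higher share of called genes from 32.2% to 20.0%, while quantile normalization moved it to 43.5%. The other 8 genes differed by -0.36 (Derl3, 95% interval -1.40 to 0.67) to 0.09 (Os9, -0.10 to 0.29).

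The WT pair is given by the titles alone. WT titled DSS minus titled UT, 6 of the 10 genes passed, beside 31.7% of all genes: 4 higher, beside 14.7%, and 2 lower, beside 17.0%. The 2 pairs of arrays did not overlap for 9 of 10 genes, all but Os9, beside 64.4% of all genes. Edem1 stood at 2.09 and 2.47 against 0.74 and 0.96 (1.43, SE 0.18, adjusted p = 0.00218), Sel1l at 0.95 and 1.20 against 0.14 and -0.36 (1.19, adjusted p = 0.0041) and Herpud1 at 3.80 and 4.0 against 2.98 and 3.37 (0.72, adjusted p = 0.0271). Syvn1 differed by 1.15 (adjusted p = 0.00442). All 3 genes of the ligase complex and Edem1 were thus higher on the arrays titled DSS. Erlec1 was lower, at 2.86 and 2.89 against 4.26 and 3.51 (-1.01, adjusted p = 0.0121), as was Derl2, at 3.77 and 3.96 against 4.97 and 4.33 (-0.78, adjusted p = 0.0239). Under the descriptions every one of these signs turns. In a fit of the 4 WT arrays alone none of the 6 passed (adjusted p 0.0589 to 0.171). Herpud1 was lost without either WT titled DSS array or WT titled UT replicate 1, Derl2 and Erlec1 without either WT titled DSS array (adjusted p 0.0584 to 0.139 for these 3 genes), and Edem2 passed without WT titled UT replicate 2 (1.55).

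The probes of 1 gene parted in this comparison. Both Sel1l probes passed as higher (1.19 and 0.89), but the Edem1 probes differed by 1.43, -0.18 and 0.06, the Syvn1 probes by 1.15 and -0.23, and the Erlec1 probes by -1.01 and 0.43. A Derl1 probe passed as higher (0.60, adjusted p = 0.0296) while the other 3 differed by -0.18 to -0.35. With the mean of each gene's probes, Edem1 (0.43, adjusted p = 0.106), Syvn1 (0.46, adjusted p = 0.0834) and Erlec1 (-0.29, adjusted p = 0.319) did not pass, and Sel1l, Herpud1 and Derl2 did. The calls of Edem1, Syvn1 and Erlec1 therefore rest on 1 probe each. The difference between the 2 probes of a gene, over 5085 genes with 2 or more, also lay farther from its median on the WT titled UT arrays, by a median of 0.37 and 0.31, than on the other 10 (0.12 to 0.26).

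**Figure D5:**
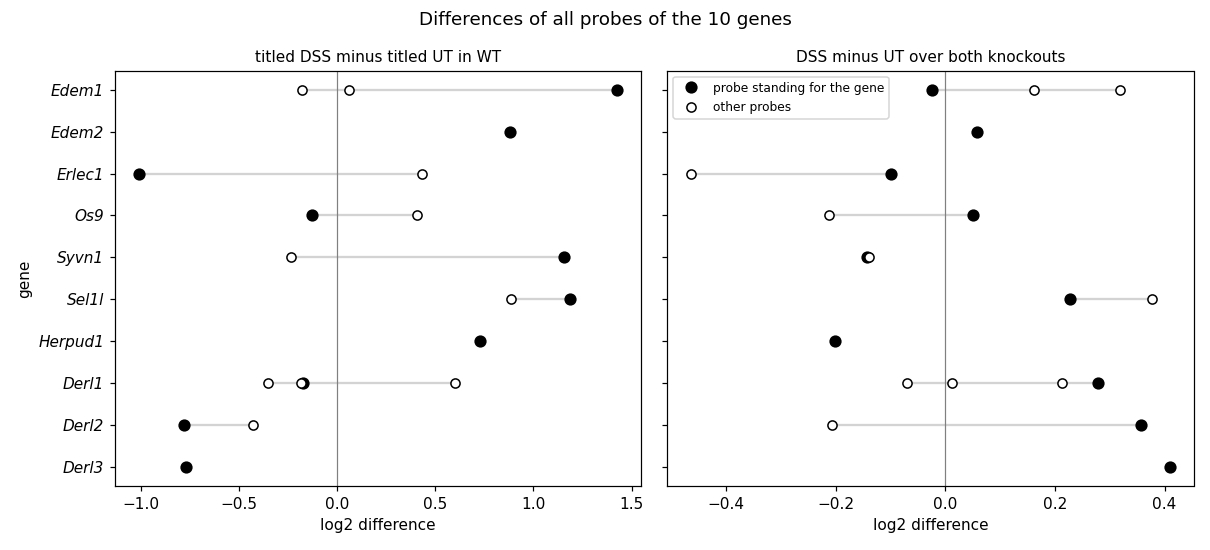
Log2 differences of all 20 probes, by gene, for WT titled DSS minus titled UT (left) and DSS minus untreated over both knockouts (right); filled points represent the gene, open points are its other probes, and grey lines join the probes of 1 gene. Edem1 probes spread from -0.18 to 1.43 on the left, and the Derl2 probes lie on either side of 0 on the right.

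Set against the WT pair, the DSS responses of the knockouts differed in opposite ways under the 2 readings of the labels. With WT read by titles, the response in ATF6aKO minus that in WT passed for 4 of the 10, all negative (Edem1, Herpud1, Sel1l and Syvn1, by -1.18 to -1.49), beside 7.66% of all genes (3.58% positive and 4.08% negative). With WT read by descriptions it passed for Edem1, Sel1l and Syvn1 as positive (0.99 to 1.37) and for Erlec1 as negative (-1.39), beside 27.9% of all genes (14.0% and 13.9%). In ATF6bKO the 4 calls by titles were Edem1 and Syvn1 as negative (-1.42 and -1.27) and Derl2 and Erlec1 as positive (1.16 and 1.19), beside 14.6% of all genes (8.36% negative and 6.27% positive). The 3 calls by descriptions were Edem1, Sel1l and Syvn1 as positive (1.04 to 1.65), beside 29.3% of all genes (12.7% positive and 16.6% negative). For Edem1 and Syvn1 the sign turned with the reading in both knockouts, because within the knockouts their own DSS differences were between -0.17 and 0.01. Whether the response of these genes depends on ATF6a or ATF6b cannot be told apart from the label conflict.

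Of 59 further genes of the pathway, 54 were tested. With DSS over both knockouts 7 rose and 6 fell, 13.0% and 11.1% of them, beside 13.2% and 15.8% of all genes, so the shares were near those of all genes. Among the rises were Hspa5 (BiP, the main chaperone of the ER lumen), by 0.80 (SE 0.12, adjusted p = 0.00464), and the lectin chaperone Calr, by 0.64 (SE 0.13, adjusted p = 0.0123). The membrane ligases Rnf5 and Tmem129 fell by 0.55 each (adjusted p = 0.00682 and 0.0113). These 4 passed without any 1 knockout array. The other named changes, Fbxo2 (0.52), Fbxo6 (0.51), Trim13 (0.45), Ube2g1 (-0.37), Tmub1 (-0.33) and Tmub2 (-0.33), each lost the call without 3 to 7 of the 8 arrays in turn. Within ATF6aKO 0 of 54 passed (4 at an unadjusted p under 0.05), and within ATF6bKO Fbxo6 rose (0.72, adjusted p = 0.0452) and Tmem129 fell (-0.62, adjusted p = 0.046), each losing its call without 10 of the 12 arrays of the fit in turn.

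Between the knockouts 5 of the 54 were higher in ATF6aKO and 5 lower, 9.26% each, beside 2.95% and 6.23% of all genes. Hspa5 (-0.84, adjusted p = 0.0175) and Hsp90b1 (-0.74, adjusted p = 0.0337), which encode the main lumenal chaperones, were lower in ATF6aKO than in ATF6bKO. Calr (0.94, adjusted p = 0.0171) and Dnajb9, a cochaperone of BiP (0.79, adjusted p = 0.0148), were higher. Hspa5 and Hsp90b1 are textbook targets of ATF6a. Hsp90b1 passed as lower in ATF6aKO than in WT (-0.73, adjusted p = 0.0395), also against each WT pair alone. Calr went the other way: it passed as higher in ATF6aKO than in WT (0.83, adjusted p = 0.0219), also against each WT pair alone. Hspa5 did not pass as lower in ATF6aKO than in WT in the fit of all 12 arrays or against either WT pair. It passed as higher in ATF6bKO than in WT in the fit of all 12 arrays, but not against either WT pair alone. The 4 calls named above compare the knockouts with each other. Each of the 4 lost its call without ATF6aKO DSS replicate 1 (the largest adjusted p over the arrays left out was 0.0511 to 0.0942), Calr also without ATF6bKO DSS replicate 1, Hspa5 without either ATF6bKO DSS array, and Hsp90b1 without 7 of the 8 arrays in turn. Rhbdd1 (1.06), Rnf185 (0.40) and Ngly1 (0.34) were also higher, and Ube4a (-0.60), Fbxo2 (-0.56) and Atxn3 (-0.45) lower, each lost without 6 to 8 arrays in turn; Rhbdd1 turned to -0.31 with normexp.

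Against WT, 3 of the 54 were higher and 8 lower in ATF6aKO, and 2 higher and 6 lower in ATF6bKO. These are 5.56% and 14.8% of them, and 3.7% and 11.1%, each below the share of all genes (14.6% and 20.6%, and 13.7% and 15.5%). Ube2j1, the ubiquitin-conjugating enzyme of the ER membrane, was higher in both (1.19, adjusted p = 0.00159, and 0.85, adjusted p = 0.00776). Atxn3, a deubiquitinase that works with VCP, was lower in both (-1.17, adjusted p = 0.00142, and -0.72, adjusted p = 0.011). Ngly1, which removes glycans from proteins that have left the ER, was lower in both as well (-0.95 and -1.29). These 3 genes kept both calls without any 1 array and against each WT pair alone. Against the WT titled DSS arrays alone the differences were 1.02 and 0.68 for Ube2j1, -1.20 and -0.75 for Atxn3 and -0.65 and -0.99 for Ngly1, with adjusted p 0.00448 to 0.0164. Over the list, 7 were then higher and 8 lower in ATF6aKO, 13.0% and 14.8% of it, beside 15.7% and 21.3% of all genes. In ATF6bKO 4 were higher and 7 lower, 7.41% and 13.0% of it, beside 12.9% and 14.5% of all genes. These comparisons share the WT arrays, and slide and genotype cannot be told apart in them.

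Herpud1 and Derl3 were followed for likeness. Over the 12 arrays, among 12612 named genes well above background on all of them, the levels of Ndufa8 (r = 0.97), Susd6 (0.97), Fbxw11, Mpzl2 and Anapc5 (0.96 each) were closest to those of Herpud1. Without the WT titled UT arrays these r values were 0.81 to 0.90. For Derl3 the closest were Spn (r = 0.92), Slc14a1 (0.91), Spaca9, Itgb7 and Tubb2b (0.90 each), with 0.90 to 0.93 over 10 arrays. Among the 10 genes themselves, Edem1 and Syvn1 had r = 0.90 over 12 arrays and -0.04 over 10, Edem1 and Herpud1 0.82 and -0.17, Sel1l and Syvn1 0.82 and -0.11, and Herpud1 and Sel1l 0.69 and -0.11. Herpud1 and Syvn1, with 0.89 and 0.51, and Edem1 and Sel1l, with 0.88 and 0.46, kept a positive r over 10 arrays. Of these 4 genes every pair had the lower r without the WT titled UT arrays, whereas Derl1 and Os9 had r = 0.81 over 12 arrays and 0.83 over 10. All these coefficients describe arrays that fall into 6 groups and share their scaling.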

How the data were processed

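Colon RNA of 12 samples in 6 groups of 2 was read on single-colour Agilent arrays (probe design on mm8, per the file headers). The scanner files hold the processed signal as an intensity, made by the authors with Agilent Feature Extraction 10.7.1.1, per the submitters' processing notes. Control and outlier spots (54 to 108 an array) were left out, spots of a probe averaged, and log2 of the intensity taken minus log2 of the array's 75th percentile. Of 41174 probes, 30428 were well above background on all arrays of at least 1 group; 60.3% have a symbol through RefSeq. A share of 65.5% to 76.3% of probes was well above background on each array and no spot was saturated; the number of arrays limits the precision. The deposited value table holds log2 values of the authors of unstated centring (column medians -0.47 to 0.24). Of its 12 columns 8 followed another sample's array (all 4 WT columns that of the other WT group), so it served only as an alternative, each column taken as the array it follows.

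Samples were grouped by title. DSS in each genotype and its interactions were fitted over 12 arrays with group means; the knockout and pooled DSS comparisons were fitted on their 8 arrays with the other factor as a term (limma 3.58.1 in R 4.3.3, lmFit and eBayes, Benjamini-Hochberg over all genes tested, threshold 0.05). The code was tested on simulated data. Named beside the 10 genes are up to 5 of 59 further pathway genes each way per comparison, those with the largest change, and the 5 genes most like Herpud1 and Derl3. The genes, lists and tests were chosen with earlier results of these data known. Alternatives were quantile normalization, normexp (offset 50), the value table, filters, the mean of probes, a replicate block, other sets of arrays and each array left out. Promoters came from RefSeq's GRCm38.p6 table.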

Additional observations from a re-analysis of the deposited data

Results flagged for a closer look

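Listed here are 40 differences between the DSS response of a knockout and the WT pair that passed the interaction test (limma, adjusted p under 0.05). They belong to the 10 genes and the named pathway genes. The latter were named only among genes that passed, so 40 is not a frequency in the pathway. Of all genes, 7.66% (titles) and 27.9% (descriptions) passed in ATF6aKO, and 14.6% and 29.3% in ATF6bKO. All 40 differences rest on the 2 WT titled UT arrays and on the conflict between titles and descriptions, so each reading of WT is given. With WT by titles, the difference in ATF6aKO was -1.49 for Edem1, -1.18 for Herpud1, -1.20 for Sel1l, -1.32 for Syvn1, 1.32 for Dnajc10, 1.93 for Trim13, -1.94 for Ube4b and 1.23 for Ubl4a. With WT by descriptions it was 1.37 for Edem1, 1.17 for Sel1l, 0.99 for Syvn1, -1.39 for Erlec1, -1.13 for Dnajc10, -0.79 for Rad23b, -1.22 for Rnf5, -0.82 for Tmem129, -1.08 for Ube2g1, 1.59 for Ube4b and 1.07 for Uggt1. Edem1, Sel1l, Syvn1, Dnajc10 and Ube4b thus passed under both readings with opposite signs.

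In ATF6bKO, with WT by titles, the difference was -1.42 for Edem1, -1.27 for Syvn1, 1.16 for Derl2, 1.19 for Erlec1, 1.49 for Dnajc10, 0.99 for Fbxo2, 1.35 for Fbxo6, 1.75 for Trim13, -2.04 for Ube4b and 1.42 for Ubl4a. With WT by descriptions it was 1.44 for Edem1, 1.65 for Sel1l, 1.04 for Syvn1, -0.96 for Dnajc10, -0.65 for Rad23b, -1.14 for Rnf5, -0.96 for Tmem129, 0.81 for Txndc11, -1.23 for Ube2g1, 0.79 for Ube2j1 and 1.49 for Ube4b. Here Edem1, Syvn1, Dnajc10 and Ube4b passed under both readings with opposite signs. No sample could be tested for standing apart within a group of 2 arrays.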

How the results depend on the processing

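Over single genes, 2939 alternative values stayed on their side of the threshold, 568 lost the call and 69 gained it. Turns of sign between uncalled values are among the 2939, as for Edem1 and Sel1l in ATF6aKO minus WT without both WT titled UT arrays. A further 5 turned sign with a call before or after the turn. Erlec1 did so in ATF6aKO minus WT (0.61 on the value table and 0.46 without both WT titled UT arrays). It also did so in ATF6bKO minus WT (0.45 without both). The others were Rnf103 in ATF6aKO minus WT (0.0021 on the value table) and Rhbdd1 between the knockouts (-0.31 with normexp). The cause was not tested. Replicate numbers do not pair the samples: deviations of same-numbered arrays correlated at -0.22 to 0.15 over 15 pairs of groups, 2 of them above 0.1. With a replicate block 1146 genes passed between the knockouts, 0 of the 10 genes in ATF6bKO minus WT (Syvn1, adjusted p = 0.0503) and 2 in the ATF6bKO interaction by titles.

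Of the 10 genes, as reported 0 passed for DSS in ATF6bKO and 1 without the WT arrays; 6 in the WT pair, but 3 with the mean of probes and 0 in its own 4 arrays; 1 for DSS over both knockouts, but 0 with the mean of probes and 2 with quantile, strict filter or value table. In ATF6aKO minus WT 3 became 5 with all 12 arrays, 1 with the mean of probes or no filter and 10 on the value table. In ATF6bKO minus WT 1 became 6 with all 12 arrays, 0 with the mean of probes, 3 with normexp, 7 on the value table, 4 without either WT pair and 2 with WT by descriptions. Between the knockouts 1 became 0 with all 12 arrays, 2 with the mean of probes and 3 with normexp. The interactions gave 2 with the mean of probes and 0 without filter (ATF6aKO, titles), 1 with the mean of probes (ATF6aKO and ATF6bKO, descriptions), and 0 with the mean of probes and 2 without filter (ATF6bKO, titles).

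Of all genes, DSS in ATF6aKO called 1489, but 698 without filter, 566 in its own arrays and 2922 without the WT arrays; DSS in ATF6bKO 3012, but 1803 with normexp (higher share 54.5%, against 44.2%), 1821 in its own arrays and 4631 without the WT arrays; the WT pair 7393, but 639 in its own arrays. ATF6bKO minus WT called 6823, but 11783 with all 12 arrays, 12410 with normexp and 10954 on the value table; ATF6aKO minus ATF6bKO 2143, but 1282 with all 12 arrays, 1252 without filter and 13163 with normexp. The knockout interaction called 0, but 5 with quantile and 4 without the WT arrays. That of ATF6aKO by titles called 1785, but 267 without filter, 2688 with normexp and 2866 with the strict filter, and that of ATF6bKO by titles 3413, but 1503 without filter. Normexp moved the higher share for DSS over both knockouts from 45.6% to 59.1%.

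Without 1 array at a time, calls among all genes and among the 10 ranged from 183 to 3475 and 0 to 0 (DSS in ATF6aKO), 1095 to 5294 and 0 to 1 (DSS in ATF6bKO), 2990 to 10508 and 3 to 7 (WT pair), 3868 to 6651 and 1 to 1 (DSS over both), 5419 to 8268 and 0 to 2 (ATF6aKO minus WT), 4146 to 7073 and 0 to 1 (ATF6bKO minus WT), 34 to 2807 and 0 to 1 (between knockouts), and 0 to 87 and 0 to 0 (knockout interaction). For the interactions with WT they ranged from 0 to 7641 and 0 to 7 (ATF6aKO, titles), 2970 to 10194 and 2 to 6 (ATF6aKO, descriptions), 760 to 8997 and 0 to 6 (ATF6bKO, titles) and 3969 to 10056 and 2 to 7 (ATF6bKO, descriptions). The sets without both arrays of a WT pair were chosen after the data had been seen. With 2 arrays a group, the 95% intervals of the 10 genes reached a median of 0.26 to either side on the log2 scale between the knockouts, 0.45 for DSS within a genotype and 0.64 for the interactions, and Atf6b was not well above background on 3 of 4 ATF6bKO arrays.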
